A study of Gossypium hirsutum with 24 samples.

Results

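The quantity described here is the difference, for each probe set, between the drought effect at 10 dpa (days post anthesis, counted from flower opening) and the drought effect at 5 dpa. A drought effect is the mean log2 signal of the drought arrays minus that of the control arrays of the same stage, so a positive difference means that the effect lay further towards higher expression in drought at 10 dpa than at 5 dpa. The difference was computed for 23973 of the 24132 probe sets of the array, leaving out 159 control probe sets, and it uses 12 of the 24 arrays of the study. Transcripts of field-grown upland cotton (Gossypium hirsutum cv. Bikaneri Nerma) had been measured with the Affymetrix cotton GeneChip in drought and control plants at 4 stages of boll growth, with 3 biological replicates each. The groups used were drought plants at 10 dpa, control plants at 10 dpa, drought plants at 5 dpa and control plants at 5 dpa. All grew in the open field, in 6 adjacent plots per treatment. In the drought plots water was withheld at peak flowering, a shelter was drawn over the plots when it rained, and collection began once soil moisture was down to 19.5%, reached 18 to 19 days after the last irrigation. The sources used here do not say which plot gave which replicate. RNA came from ovules bearing fibre at 10 dpa and from bolls, the young fruits, at 5 dpa, so stage and tissue change together and cannot be told apart in any value below.

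Cotton fibres are single cells of the seed coat that start to grow out around the day of flowering, elongate by turgor and wall loosening, and later lay down a thick wall of cellulose. Expansins, arabinogalactan proteins, xyloglucan enzymes, tubulins and very-long-chain lipids are known for their part in elongation, and ethylene, auxin and gibberellin for promoting it. In plants short of water, some members of the NAC, AP2/ERF and MYB transcription factor families are known to rise with abscisic acid, along with protective late embryogenesis abundant proteins.

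Within a stage, the deposited log2 values of any probe set have a median of 0 over the 6 arrays, so that levels cannot be compared between 10 and 5 dpa, and absolute levels of marker genes cannot be read. Of the markers of other tissues, the 5 seed storage genes had no called drought effect at either stage. For the difference 1 of them was called lower (-0.31), and all 5 were with the scaling on 4 spike controls described next. The single green tissue gene with a probe set was RCA1, described below, and pollen and xylem marker lists had 0 genes. Among 16 fibre marker genes, the difference was called higher for 3, all of which turned negative with the scaling on spike controls described next, and lower for 8. In bulk tissue, fewer cells of a type and less RNA per cell cannot be told apart. Spike and control probe sets moved with the groups as well. The 4 poly-A RNA controls Dap, Lys, Phe and Thr, which are added to the sample before labelling, lay 1.26 higher in drought than in control arrays at 10 dpa and 0.24 lower at 5 dpa on the log2 scale, a difference of 1.50. The controls added at hybridisation differed by 0.34, and the 5′ minus 3′ signal of the cotton control transcripts by 0.07. That signal was itself 0.30 higher in drought than in control arrays at 5 dpa and 0.36 higher at 10 dpa. The median of the tested probe sets differed by 0.03. The deposited values therefore set each gene against the bulk of the probe sets, whose median difference was 0.01. If arrays were scaled on the 4 poly-A controls instead, every difference would be 1.50 lower. Each gene family below in which a difference called higher turned to lower is described with this scaling. Differences not called in the deposited scaling can become called lower as well. The number called lower was then 8 of 9 for AP2/ERF factors and 3 of 4 for zinc fingers. It was 4 of 4 for very-long-chain fatty acid genes, 2 of 3 for xyloglucan enzymes and 2 of 2 for pectin enzymes, and other families also gained lower calls. The part of this shift in the results was not tested. The arrays of the drought plants at 10 dpa spread more widely than those of the other groups, and replicate 2 stood furthest from its group, with a standard deviation of 0.27 from its group mates across probe sets. Without it the number of called differences was 11465 in place of 11160. The 5′ minus 3′ signal of this replicate was 0.45, against 0.06 and -0.07 in the other drought arrays at 10 dpa.

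The drought effect differed between 10 and 5 dpa for 11160 probe sets, 46.6% of those tested (limma, Benjamini-Hochberg adjusted p under 0.05, called below). It was higher at 10 dpa for 5617 (23.4%) and lower for 5543 (23.1%), although with scaling on the 4 poly-A controls 408 would be called higher and 22689 lower. The difference was at least 2-fold for 2952 probe sets (12.3%), of which 1301 were higher (5.43%) and 1651 lower (6.89%). A difference of at least 4-fold was reached by 411 probe sets called higher and 446 called lower. The median standard error (SE) of a difference was 0.13 on the log2 scale, with 3 arrays per group. The drought effect itself was called for 14445 probe sets at 10 dpa (60.3%), with 28.5% higher and 31.8% lower in drought, and for 13963 at 5 dpa (58.2%), with 24.8% higher and 33.4% lower. Drought arrays were all above or all below the control arrays for 62.8% of probe sets at 10 dpa and 67.3% at 5 dpa. Its standard deviation across probe sets was 1.05 at 10 dpa and 0.77 at 5 dpa, and the effects at 10 and 5 dpa correlated across probe sets with r = 0.66, which describes features measured on shared arrays and not independent replicates.

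The most common change among called differences was a fall in drought that was deeper at 10 dpa. It made up 2287 of the 5543 lower differences, against 768 in which a rise in drought was smaller at 10 dpa. Among the 5617 higher differences, 1559 were rises in drought that were larger at 10 dpa, and 709 were falls that were smaller at 10 dpa. A further 1308 were rises called at 10 dpa alone, and 1128 were falls called at 5 dpa alone. The effects were called in opposite directions for 1387 probe sets (5.79%), which were higher in drought at 10 dpa and lower at 5 dpa in 826 cases and the reverse in 561. At least 2-fold in both directions, these were 49 and 52 probe sets. Scaling on the 4 poly-A controls would lower every effect at 10 dpa by 1.26 and raise every effect at 5 dpa by 0.24. The directions counted here are those of the deposited scaling. Of 9353 probe sets called in the same direction at both stages, 5323 had a called difference of effects.

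**Figure D1:**
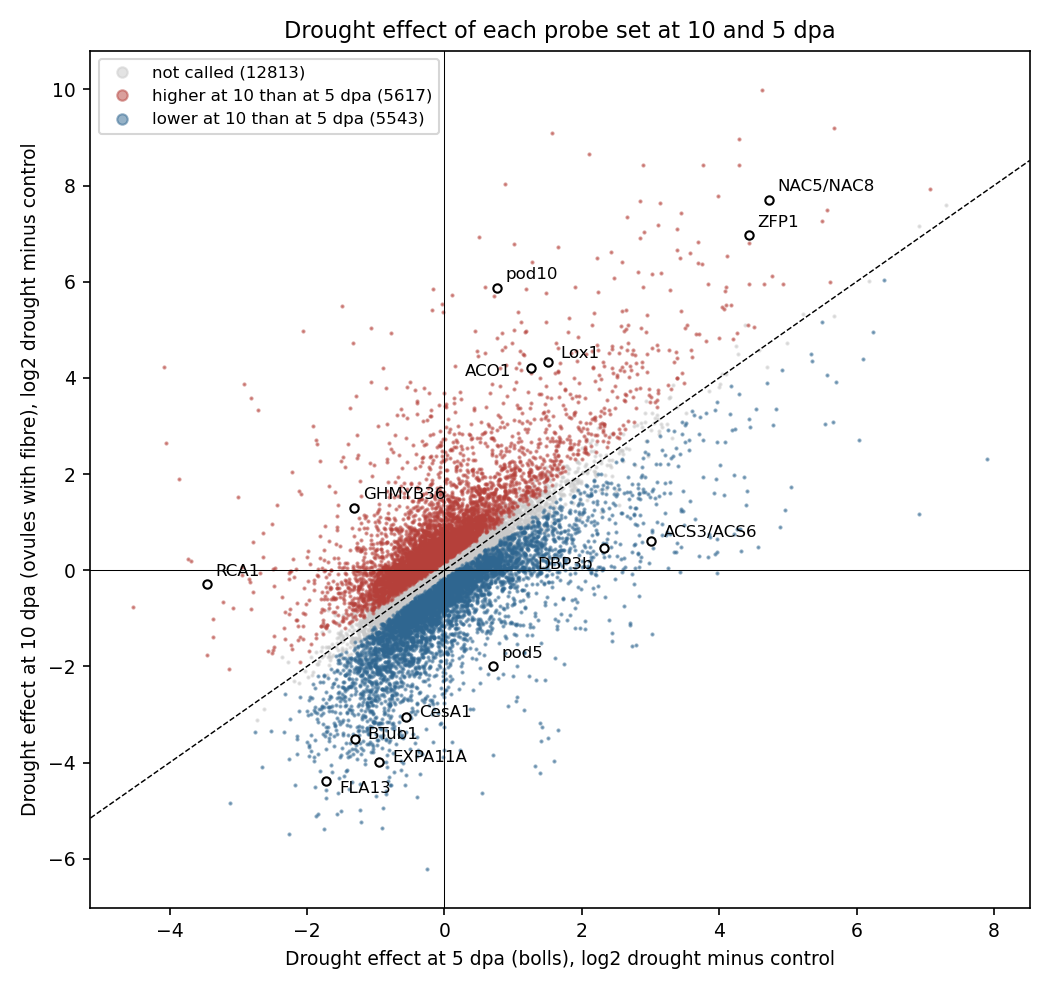
Each point is 1 of 23973 probe sets, with its drought effect (log2 drought minus control) at 10 dpa on the vertical axis and at 5 dpa on the horizontal axis; red points were called higher (5617), blue points lower (5543) and grey points not called, and the dashed line marks equal effects. The labelled genes lie off the line on either side, NAC5/NAC8 and ZFP1 at the upper right with rises at both stages, FLA13, EXPA11A and BTub1 at the lower left with falls at both, and pod5 and GHMYB36 in the quadrants of opposite direction.

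**Figure D2:**
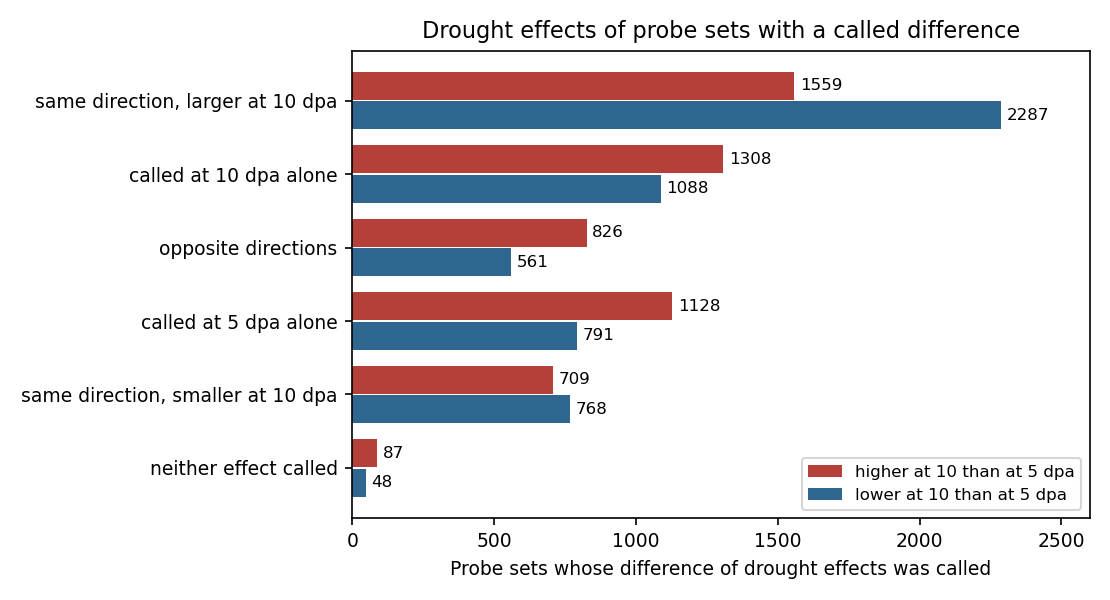
Bars count the probe sets with a called difference by what the drought effect did at 10 and 5 dpa, for differences called higher (red) and lower (blue) in the deposited scaling. The longest bar is the 2287 probe sets whose fall in drought was deeper at 10 dpa.

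The annotation named 1 gene for 697 probe sets, several for 46 and none for 23230, so that most of the differences belong to probe sets without a name. After taking 1 probe set per gene, 243 genes with an informative name remained. Of these 68 were called higher (28%), 92 lower (37.9%) and 83 not called, with a median difference of -0.03, and these shares are the ones to set beside the families below. Probe sets with a gene were called more often than those without (63.3% against 46.0%). A rule described under the processing selected 53 genes to be named in the first place, 28 higher and 25 lower. The 28 with the largest differences, 14 each way, kept their calls with a covariate for the 5′ minus 3′ signal and with any 1 of the 12 arrays left out. They had been picked for size from these same arrays, with adjusted p in limma at most 3.36e-08. Keeping their calls was thus nearly fixed by the choice and gives no independent support. Scaling on spike controls moves every difference down by the same amount, which is less than each of the 14 positive ones, so it could not turn any of these 28. For 52 genes at least 2 probe sets were called, and in 11 of them the calls disagreed in direction, so each value holds for the probe set used. The same gene name can stand for several copies in this tetraploid genome, and a slash joins the names that the annotation gives to 1 gene.

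**Figure D3:**
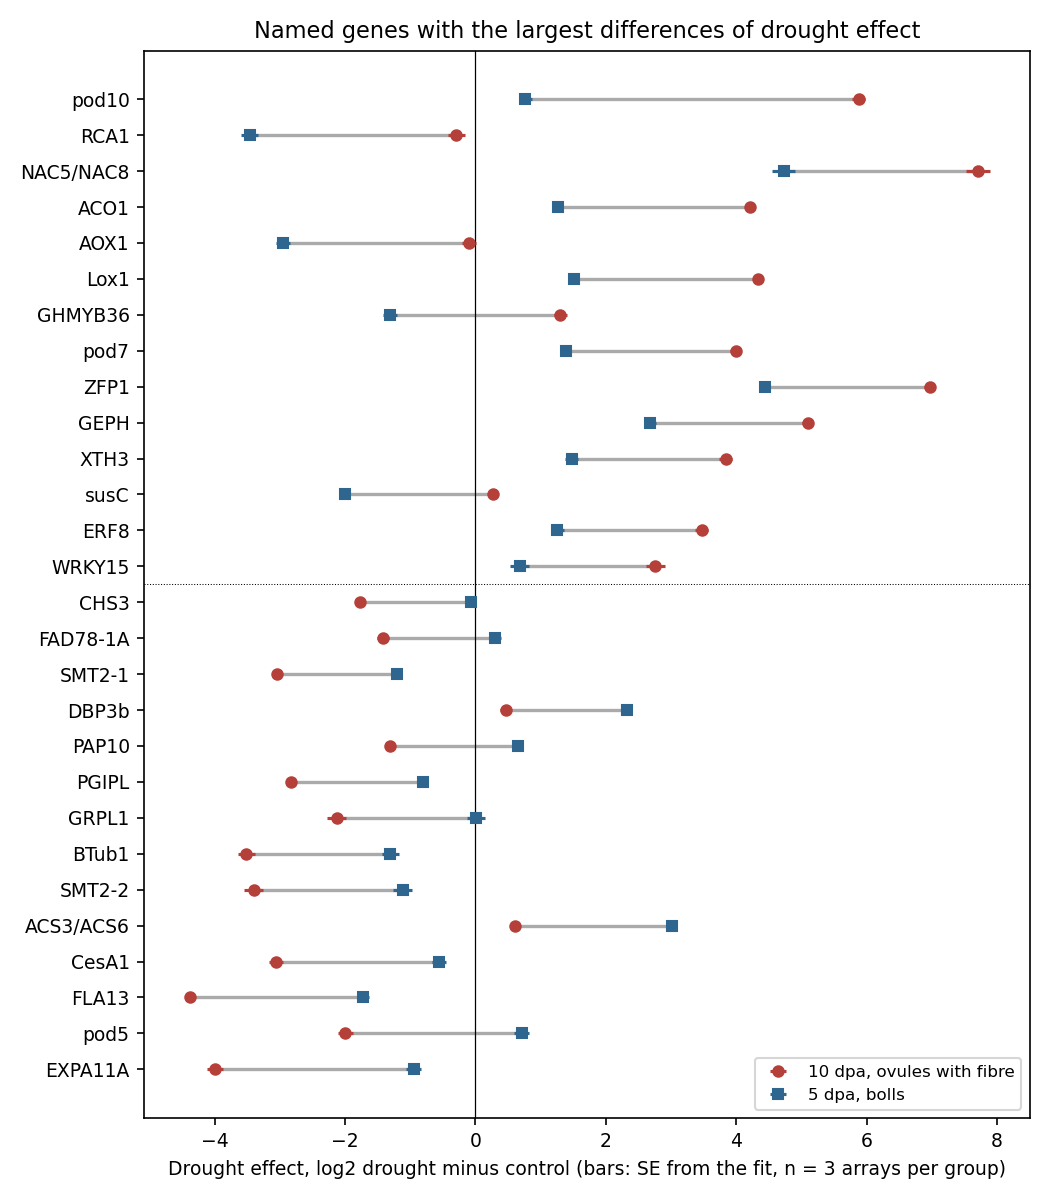
The 28 named genes with the largest differences, 14 higher above the dotted line and 14 lower beneath it, show the drought effect (log2 drought minus control, bars are the SE from the fit with 3 arrays per group) at 10 dpa as red circles and at 5 dpa as blue squares. For pod10, NAC5/NAC8, Lox1 and ZFP1 the red circle lies far to the right of a blue square that is itself above 0, whereas RCA1 and AOX1 lie near 0 at 10 dpa with a deep fall at 5 dpa; each of the 14 positive differences exceeds the shift of 1.50 in the poly-A controls.

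Among transcription factors, 4 NAC genes were strongly raised by drought at 5 dpa and more strongly at 10 dpa. NAC5/NAC8, 1 gene with both names in the annotation, had values of 3.74, 3.63 and 3.59 in drought ovules and -3.59, -4.02 and -4.55 in control ovules at 10 dpa. At 5 dpa it had 2.36, 2.35 and 2.33 in drought bolls and -2.43, -2.40 and -2.33 in control bolls. The drought and control arrays were thus far apart at both stages, and the control arrays at 10 dpa were the group with the widest spread. The effect was 7.71 ± 0.18 at 10 dpa (SE, n = 3 per group), or 209-fold, and 4.73 ± 0.18 at 5 dpa, or 26.6-fold. The difference was 2.98 ± 0.25 on the log2 scale, or 7.87-fold (limma, adjusted p = 3.53e-09). NAC4, NAC2 and NAC7 followed, with differences of 1.79 ± 0.24, 1.67 ± 0.11 and 1.55 ± 0.10. Their effects at 10 dpa were 5.89, 4.32 and 4.25, against 4.10, 2.65 and 2.70 at 5 dpa. The other NAC genes, NAC6, NACL2/nst3 and NAC10, had drought effects between -0.18 and 0.08 at either stage and were not called for the difference. Of 7 NAC genes 4 were therefore called higher and 0 lower, with a median difference of 1.55; with scaling on the 4 poly-A controls NAC5/NAC8 alone was called higher and 3 were called lower. NAC4 was read by a probe set that can bind related transcripts, and its other probe set gave 3.72. With the mean of all probe sets of each gene, the median difference of the 7 NAC genes was 1.08 in place of 1.55.

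MYB factors were called higher in 7 of 8 cases, with a median difference of 0.47, but after scaling on the 4 poly-A controls 1 was higher and 5 were lower. The largest change was that of GHMYB36. Its values at 10 dpa were 0.63, 0.56 and 0.64 in drought and -0.56, -0.61 and -0.89 in control arrays, whereas at 5 dpa they were -0.75, -0.61 and -0.64 in drought and 0.61, 0.66 and 0.67 in control arrays. Drought arrays were above every control array at 10 dpa and below every one at 5 dpa. The effects were 1.30 and -1.31, and the difference 2.61 ± 0.15. MYB (effects 4.58 and 2.75, difference 1.84 ± 0.14) had a rise that was larger at 10 dpa, and GHMYB10 (effects -0.69 and -2.15, difference 1.46 ± 0.11) a fall that was smaller. The gene myb109, known in cotton for a role in fibre growth, fell in drought at both stages, by 1.40 at 10 dpa and by 1.87 at 5 dpa on the log2 scale.

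The AP2/ERF factors, which include activators that bind ethylene- or dehydration-responsive elements, divided. Of 9 genes 6 were higher in drought at 10 dpa and all 9 at 5 dpa. For the difference, 1 was called higher, 5 lower and 3 not called. The gene called higher was ERF8, whose effect was 3.47 at 10 dpa and 1.25 at 5 dpa, a difference of 2.22 ± 0.15. In contrast DBP3b, a dehydration-responsive element binding protein, had values of 0.21, 0.13 and 0.52 in drought and -0.21, -0.19 and -0.13 in control arrays at 10 dpa. At 5 dpa it had 1.29, 1.19 and 1.10 in drought and -1.15, -1.10 and -1.14 in control arrays. The groups did not overlap at either stage, but they were much closer at 10 dpa. Its effect of 0.47 at 10 dpa, against 2.32 at 5 dpa, gave a difference of -1.85 ± 0.12. ERF9 and DBP2 had effects of -0.19 and -0.13 at 10 dpa and rose by 1.15 and 1.08 at 5 dpa, with differences of -1.34 and -1.22. CBF17, RAV1 and ERF7 had effects above 2 at 10 dpa and were not called for the difference, whose values were 0.24, 0.42 and 0.33. The WRKY factors also went apart: WRKY15 was higher at 10 dpa (effects 2.76 and 0.68, difference 2.08 ± 0.20), and WRKY24/WRKY71 lower (effects 0.99 and 2.13, difference -1.14 ± 0.12).

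ZFP1, a zinc finger protein, had a drought effect second in size to NAC5/NAC8 among the named genes with the largest differences. At 10 dpa it had 3.35, 3.38 and 3.35 in drought and -3.75, -3.35 and -3.71 in control arrays, and at 5 dpa 2.32, 2.13 and 2.27 in drought and -2.24, -2.13 and -2.23 in control arrays. No drought array came near a control array. The effect of 125-fold at 10 dpa and 21.7-fold at 5 dpa gave a difference of 2.53 ± 0.12 (limma, adjusted p = 3.84e-13). The drought-induced Di19 zinc fingers Di19-1 and Di19-2 and the zinc finger GZFP were higher in drought at both stages, with effects from 0.32 to 0.99, and were not called for the difference. Homeobox, MADS-box and other regulators of fibre and flower numbered 9, of which 2 were called higher, HB4 (difference 0.52) and bHLH110D/GHDEL61 (0.40), and 3 lower, led by MADS-9 at -0.87 ± 0.13; with scaling on the 4 poly-A controls all 9 were called lower. HOX3, a homeodomain factor known to promote fibre elongation, had effects of -1.0 at 10 dpa and -1.15 at 5 dpa and was not called for the difference (0.15 ± 0.13).

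**Figure D4:**
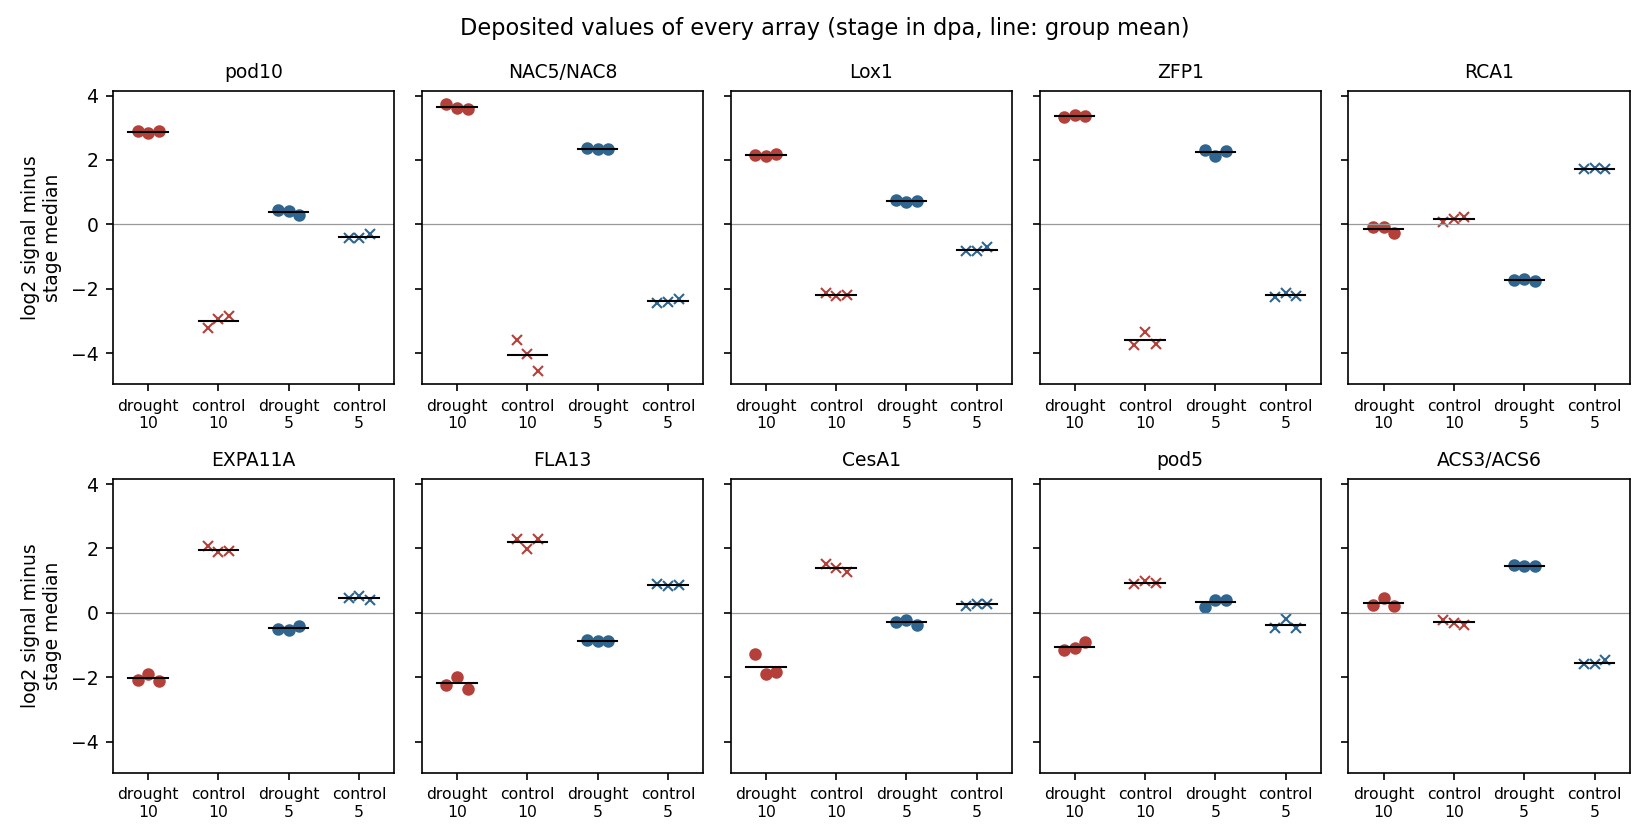
Deposited log2 values (signal relative to the stage median of 6 arrays) of 10 named genes on every array, with drought as filled circles, control as crosses, 10 dpa in red on the left and 5 dpa in blue on the right of each panel, and lines at the group means. In NAC5/NAC8 the drought arrays sit between 3.59 and 3.74 at 10 dpa, against -4.55 to -3.59 in control, and in EXPA11A the order of drought and control is turned at both stages with a wider gap at 10 dpa.

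Ethylene synthesis held some of the clearest contrasts between single genes. ACC synthase makes the precursor ACC, and ACC oxidase turns it into ethylene. The ACC oxidase gene ACO1 (LOC107905899; a second gene in the annotation has the same name) had 2.09 in each of the 3 drought arrays at 10 dpa and -2.14, -2.09 and -2.15 in control arrays. At 5 dpa its values were 0.72, 0.68 and 0.58 in drought and -0.59, -0.63 and -0.58 in control arrays. The arrays of a group lay close together and the groups were apart at both stages. The effect was 4.21 ± 0.06 at 10 dpa, or 18.6-fold, and 1.26 ± 0.06 at 5 dpa, or 2.40-fold, so that the difference was 2.95 ± 0.09 (limma, adjusted p = 2.86e-16). The ACC synthase gene ACS3/ACS6 went the other way. It had 0.25, 0.46 and 0.21 in drought and -0.21, -0.30 and -0.38 in control arrays at 10 dpa, and 1.49, 1.46 and 1.45 in drought and -1.60, -1.59 and -1.45 in control arrays at 5 dpa. Drought arrays were above control arrays at both stages, but by 1.52-fold at 10 dpa and by 8.08-fold at 5 dpa. The difference was -2.41 ± 0.09 (limma, adjusted p = 3.13e-15). Another ACC synthase gene, named ACS, was higher by 2.13 at 10 dpa and by 0.85 at 5 dpa, a difference of 1.28 ± 0.17. The second ACO1 gene (LOC107954048) fell in drought at both stages, by 0.65 and 1.26 on the log2 scale. ACO3 rose at both stages, by 1.48 at 10 dpa and 1.62 at 5 dpa, and was not called for the difference. The list of 8 genes also holds SAMDC and MAT/SAMS, which are neither ACC synthases nor ACC oxidases. Of these 8 genes 4 were called higher and 2 lower, with a median of 0.15, whereas with scaling on the 4 poly-A controls 1 was higher and 6 were lower.

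Of 5 auxin response genes 4 were called lower for the difference of effects and 0 higher, with a median of -0.61. In drought 2 of the 5 were higher and 3 lower at 10 dpa. Aux3 was lower in drought at 10 dpa, with an effect of -0.97, and higher at 5 dpa, with an effect of 0.40, and its difference was -1.37 ± 0.07. ARF1, an auxin response factor, fell at both stages, with effects of -1.38 and -0.74. Aux4 had effects of 0.73 and 0.52 and was not called for the difference. Among gibberellin and brassinosteroid genes, GAI2, a repressor of gibberellin response, had a deeper fall at 10 dpa (effects -1.75 and -0.71, difference -1.05 ± 0.08). The gibberellin receptor gene GID1-2 (effects 2.94 and 2.07, difference 0.87 ± 0.35) and DET2, which acts in brassinosteroid synthesis (-0.87 and -1.21, difference 0.34 ± 0.10), were called higher, and both were called lower with scaling on the 4 poly-A controls. The call of GID1-2 was the weakest among named genes (limma, adjusted p = 0.0483), and it was lost without control replicate 2 or 3 at 10 dpa, without control replicate 1 or 2 at 5 dpa and without any drought replicate at 5 dpa, with adjusted p from 0.0655 to 0.112.

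Signalling genes changed by less. Of 9 small GTPases and kinases 3 were called higher and 2 lower, with differences from -0.41 for Rac2 to 0.83 ± 0.11 for MAPKKK, and all 9 were called lower with scaling on the 4 poly-A controls. MAPKKK, a kinase at the head of a mitogen-activated protein kinase cascade, and MPK3, a kinase at its end, were higher in drought at both stages, with effects of 1.78 and 2.73 at 10 dpa and of 0.95 and 2.07 at 5 dpa. Among calcium sensors, CBL3 had an effect of 0.07 at 10 dpa against 0.81 at 5 dpa, a difference of -0.73 ± 0.10, and CBL1 one of -1.06 against -0.49. CBL2 and the annexin gene Anx1 were called higher by 0.23 and 0.26, which turned to lower with scaling on the 4 poly-A controls.

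The stress and redox genes included the largest difference of any named gene. The peroxidase gene pod10 belongs to the class III peroxidases, secreted haem enzymes that act on the wall and on hydrogen peroxide. It had 2.91, 2.84 and 2.90 in drought and -3.22, -2.93 and -2.84 in control arrays at 10 dpa, and 0.46, 0.41 and 0.28 in drought and -0.43, -0.43 and -0.28 in control arrays at 5 dpa. Drought and control were apart at both stages, narrowly at 5 dpa. The effect was 58.8-fold at 10 dpa and 1.70-fold at 5 dpa, and the difference 5.11 ± 0.15 on the log2 scale, or 34.6-fold (limma, adjusted p = 1.17e-16). This probe set is of antisense design, so the strand it read is uncertain, as for AOX1, GEPH, GAI2, PAP10 and CesA1.

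The other peroxidases had differences below that of pod10, in both directions. pod7 was 15.9-fold higher in drought at 10 dpa and 2.61-fold at 5 dpa, a difference of 2.60 ± 0.12. pod5 had -1.17, -1.10 and -0.91 in drought and 0.91, 0.99 and 0.91 in control arrays at 10 dpa, against 0.19, 0.39 and 0.39 in drought and -0.48, -0.19 and -0.48 in control arrays at 5 dpa. The order of drought and control was turned between the stages without overlap at either. Its effects were -2.0 and 0.71, and the difference was -2.70 ± 0.17. Of 11 peroxidases 4 were called higher and 3 lower, with a median of 0.06, and with scaling on the 4 poly-A controls pod10 and pod7 were the 2 called higher, and 8 were called lower.

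CAT2, a catalase, was higher in drought at 10 dpa (effect 1.27) and lower at 5 dpa (-0.70), a difference of 1.97 ± 0.11. With scaling on the 4 poly-A controls its difference was no longer called. One of the glutathione transferase genes named GST had effects of 0.45 at 10 dpa and -0.63 at 5 dpa, a difference of 1.07 that was called higher and turned to -0.43, not called, with that scaling. Of 9 antioxidant genes 2 were called higher and 2 lower, and with that scaling 0 were higher and 7 lower. The dehydroascorbate reductase gene DHAR1 had a deeper fall at 10 dpa, with effects of -0.98 and -0.31 and a difference of -0.67 ± 0.11, and CSD2, a copper-zinc superoxide dismutase, had effects of -0.46 and -0.07. The other 5 genes were not called for the difference, with values from -0.14 to 0.25. Both late embryogenesis abundant genes were higher at both stages and more so at 10 dpa. Lea5-D had effects of 4.64 and 2.57 and a difference of 2.07 ± 0.08, and Lea14-A effects of 3.29 and 1.90 and a difference of 1.39 ± 0.10, which was not called with scaling on the 4 poly-A controls.

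RCA1 and AOX1 had a fall in drought that was called at 5 dpa and not at 10 dpa. RCA1 encodes Rubisco activase, which keeps the carbon-fixing enzyme of chloroplasts active. It had -0.09, -0.07 and -0.26 in drought and 0.07, 0.18 and 0.23 in control arrays at 10 dpa, and -1.73, -1.71 and -1.77 in drought and 1.73, 1.74 and 1.71 in control arrays at 5 dpa. The groups were close but not overlapping at 10 dpa and far apart at 5 dpa, where drought was 11-fold lower. The difference was 3.17 ± 0.19 (limma, adjusted p = 1.13e-11). AOX1 encodes the alternative oxidase of mitochondria and had an effect of -0.10 at 10 dpa, with overlapping groups, and of -2.95 at 5 dpa. Its difference was 2.85 ± 0.15. The bolls taken at 5 dpa include green fruit wall, whose part in the result for RCA1 was not tested.

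Among wall genes, 3 of 4 expansins had falls that were deeper at 10 dpa. Expansins loosen the wall so that it can extend. EXPA11A had -2.09, -1.89 and -2.11 in drought and 2.08, 1.89 and 1.93 in control arrays at 10 dpa, and -0.50, -0.54 and -0.40 in drought and 0.46, 0.53 and 0.40 in control arrays at 5 dpa. Drought arrays were below control arrays throughout, with a gap that was wider at 10 dpa. Drought was 15.9-fold lower at 10 dpa and 1.93-fold lower at 5 dpa, and the difference of -3.05 ± 0.16 was the largest negative one among named genes (limma, adjusted p = 2.54e-12). EXPA4 and EXPA3D had effects of -2.51 and -2.93 at 10 dpa, against -1.0 and -1.63 at 5 dpa, with differences of -1.51 and -1.30. EXP1 had the reverse pattern, a fall that was smaller at 10 dpa (-0.63 against -1.18, difference 0.55 ± 0.09), although its difference was -0.95 with scaling on the 4 poly-A controls. Of 4 expansins 3 were called lower, with a median of -1.41, and all 4 fell in drought at both stages.

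Fasciclin-like arabinogalactan proteins are wall glycoproteins that are abundant in growing fibre. FLA13 had -2.23, -2.0 and -2.35 in drought and 2.28, 2.0 and 2.29 in control arrays at 10 dpa, and -0.84, -0.86 and -0.88 in drought and 0.88, 0.84 and 0.86 in control arrays at 5 dpa. The groups were apart at both stages, by 20.8-fold at 10 dpa and 3.29-fold at 5 dpa. The difference was -2.66 ± 0.11, but a second probe set of the same gene gave -0.31. FLA15, FLA11 and FLA12 also fell further at 10 dpa, with differences of -1.44, -1.10 and -1.07. FLA4 rose in drought by 0.24 at 10 dpa and by 1.19 at 5 dpa, a difference of -0.95. FLA6 was the single member called higher, with effects of 0.28 and -0.40 and a difference of 0.68 ± 0.10, and scaling on the 4 poly-A controls turned it to -0.83. Of 12 members 7 were called lower, 1 higher and 4 not called, with a median of -0.57. FLA19 fell at both stages, by 1.95 at 10 dpa and 1.84 at 5 dpa, and was not called for the difference.

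Genes listed for cellulose and other wall polysaccharides were called lower in 6 of 12 cases and higher in 2, with a median of -0.24. With scaling on the 4 poly-A controls 11 were lower and 0 higher. The 12 include GRPL1, which was also listed with proline-rich and other wall proteins. CesA1, a cellulose synthase subunit, had -1.28, -1.89 and -1.85 in drought and 1.52, 1.38 and 1.28 in control arrays at 10 dpa, and -0.29, -0.22 and -0.36 in drought and 0.22, 0.29 and 0.28 in control arrays at 5 dpa. Drought was below control at both stages, by 8.35-fold at 10 dpa and 1.47-fold at 5 dpa. The difference was -2.51 ± 0.15, and the other probe set of CesA1 gave -2.65. GRPL1 had effects of -2.13 at 10 dpa and 0.01 at 5 dpa, where drought and control overlapped, and its 4 probe sets gave differences from -2.38 to -0.76. UGD2, which makes the UDP-glucuronic acid used for wall sugars, had effects of -0.98 and -0.21. CTL1, a chitinase-like protein known from work on cellulose, was higher in drought at 10 dpa (1.18) and lower at 5 dpa (-0.21), a difference of 1.38 ± 0.11 that turned to -0.12 with scaling on the 4 poly-A controls. Of 3 xyloglucan enzymes, which cut and rejoin the chains tying cellulose together, XTH3 alone was called, with effects of 3.84 and 1.48 and a difference of 2.36 ± 0.14. The pectin enzymes Pel and G9 were not called for the difference (-0.09 and 0.12).

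The cytoskeleton showed smaller changes apart from BTub1. The beta-tubulin gene BTub1 fell by 3.52 at 10 dpa and by 1.31 at 5 dpa on the log2 scale, a difference of -2.21 ± 0.19. At 5 dpa its drought arrays, at -0.58, -0.55 and -0.56, were below the control arrays, at 0.70, 0.97 and 0.55. All 6 tubulin genes were lower in drought at both stages. For the difference 3 were called lower and 2 higher, TUA10 by 0.55 and BTub4 by 0.42, and with scaling on the 4 poly-A controls all 6 were called lower. The mean over the 3 probe sets of TUA10 was -1.06. Actin genes differed by less, with 3 of 5 called lower (-0.39 for ACT4) and 1 higher (0.24 for ACT1, which was negative with scaling on either kind of control). The call of ACT1 was lost when any of 9 arrays was left out, with adjusted p in limma from 0.0583 to 0.141, and these were control replicates 1 and 2 and drought replicate 3 at 10 dpa and all 6 arrays at 5 dpa. The microtubule proteins katanin (KTN1, 0.36) and kinesin KIS13A1 (0.43) were called higher, which also turned to lower with scaling on the 4 poly-A controls.

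Lipid genes moved in both directions. Lox1 encodes a lipoxygenase, which oxidises polyunsaturated fatty acids on the way to jasmonate and related compounds. It had 2.14, 2.12 and 2.19 in drought and -2.12, -2.23 and -2.20 in control arrays at 10 dpa, and 0.75, 0.71 and 0.72 in drought and -0.83, -0.82 and -0.71 in control arrays at 5 dpa. The drought arrays were above the control arrays at both stages, by 20.2-fold at 10 dpa and 2.84-fold at 5 dpa. The difference was 2.83 ± 0.07 (limma, adjusted p = 8.98e-18). MFP, a multifunctional protein of peroxisomal beta-oxidation, had the reverse order, with an effect of 0.34 at 10 dpa and 1.70 at 5 dpa and a difference of -1.36 ± 0.24. Its drought and control arrays overlapped at 10 dpa.

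All 3 sterol methyltransferases, which shape the mix of membrane sterols, were lower in drought at both stages and lower still at 10 dpa, with a median difference of -1.85. SMT2-1 had -1.54, -1.57 and -1.48 in drought and 1.53, 1.54 and 1.48 in control arrays at 10 dpa, and -0.59, -0.59 and -0.61 in drought and 0.61, 0.59 and 0.62 in control arrays at 5 dpa. The spread within groups was small against the gap at both stages. The effects of -3.04 and -1.20 gave a difference of -1.85 ± 0.06. SMT2-2 had a difference of -2.29 ± 0.21 and SMT1 one of -0.63 ± 0.07. KCS12, a ketoacyl-CoA synthase that elongates very-long-chain fatty acids, had effects of -2.66 and -1.09 and a difference of -1.56 ± 0.18. Of 4 genes of that pathway 2 were called lower and 0 higher.

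Cyclopropane fatty acid synthases, which add a methylene bridge to an unsaturated fatty acid, went apart. CPA-FAS-2 had effects of -3.02 at 10 dpa and -1.32 at 5 dpa, a difference of -1.70 ± 0.09. CPA-FAS-1 had -0.37 at 10 dpa and -2.05 at 5 dpa, a difference of 1.68 ± 0.26, and CPA-FAS-3 followed it with 0.99 ± 0.17. With scaling on the 4 poly-A controls CPA-FAS-1 was not called and CPA-FAS-3 turned to lower. FAD78-1A, named as a fatty acid desaturase, was lower in drought at 10 dpa (-1.42) and higher at 5 dpa (0.30), a difference of -1.72 ± 0.13. Of 9 genes for fatty acids and cyclopropane lipids 5 were called lower and 2 higher.

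In the flavonoid pathway 3 of 4 genes were called lower and 0 higher, with a median difference of -1.14. The chalcone synthase gene CHS3, which acts at the entry of the pathway, had -0.84, -1.0 and -0.88 in drought and 0.85, 0.89 and 0.84 in control arrays at 10 dpa. At 5 dpa it had -0.02, -0.01 and -0.04 in drought and 0.02, 0.01 and 0.10 in control arrays. The groups were far apart at 10 dpa, where drought was 3.40-fold lower, and close together at 5 dpa, with an effect of -0.06. The difference was -1.70 ± 0.07. DFR, dihydroflavonol reductase, fell at both stages (-2.25 and -0.90, difference -1.36), and CHS6 had effects of -1.67 and -1.49 with no called difference. The cadinene synthase gene cdn1, of the gossypol pathway, had effects of -1.67 and -0.29, a difference of -1.38 ± 0.22.

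Sucrose synthases, which split sucrose for use in walls and storage, differed gene by gene. susC had 0.10, 0.13 and 0.14 in drought and -0.20, -0.10 and -0.13 in control arrays at 10 dpa, and -0.94, -0.92 and -0.94 in drought and 0.92, 1.19 and 1.09 in control arrays at 5 dpa. Drought was slightly above control at 10 dpa and 3.99-fold below it at 5 dpa, and the difference was 2.26 ± 0.08. Sus1 fell further at 10 dpa (-1.07 against -0.40, difference -0.67 ± 0.06). SusA1 had effects of 1.35 and 2.54, and its difference of -1.19 ± 0.54 was not called (limma, adjusted p = 0.0755). Of 8 genes for turgor, meaning vacuolar pumps, phosphoenolpyruvate carboxylase, ion transporters and aquaporins, 2 were called higher and 3 lower. With scaling on the 4 poly-A controls all 8 were called lower. The vacuolar sodium/proton exchanger NHX1 rose by 2.27 at 10 dpa and by 1.69 at 5 dpa, a difference of 0.58 ± 0.09 that turned to -0.92 with scaling on the 4 poly-A controls. KT had effects of 0.18 and 1.15, a difference of -0.96 ± 0.07, and the aquaporin gene NIP6.1 effects of -1.89 and -1.28, a difference of -0.60 ± 0.18. Ribosomal protein genes were called higher in 3 of 4 cases, while with scaling on the 4 poly-A controls all 4 were called lower. Their effects were -0.35 at 10 dpa and -1.24 at 5 dpa for RPS16, and -0.12 and -1.01 for RPS4. Of the remaining fibre markers, E6 had effects of -0.27 and -1.17 (difference 0.90 ± 0.12, turned to -0.60 by that scaling) and FSLTP2 effects of -0.01 and 0.56 (difference -0.57 ± 0.10).

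**Figure D5:**
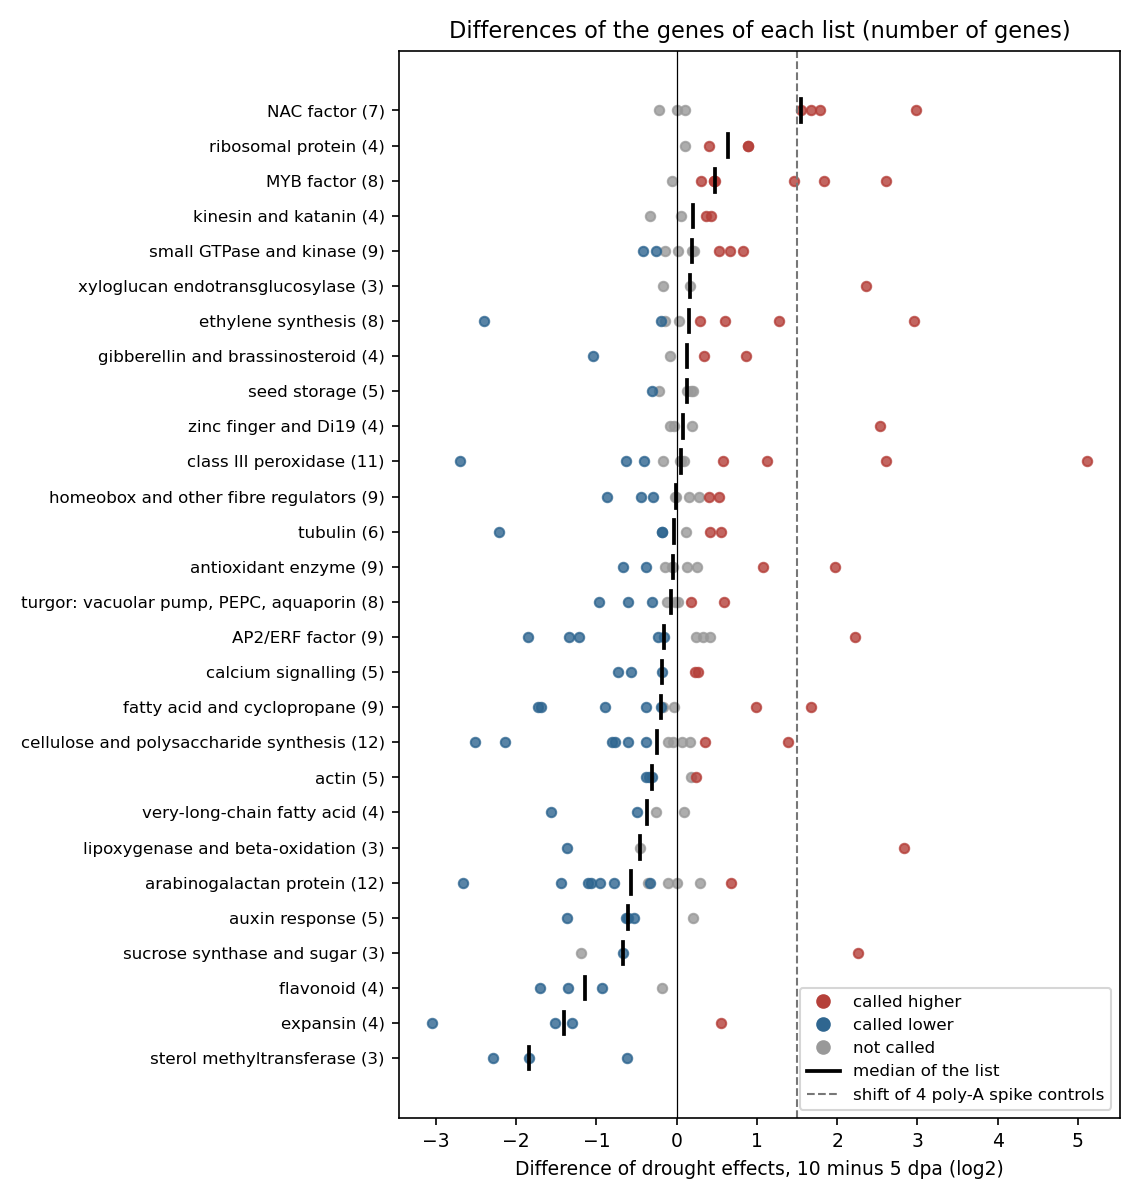
Each point is the difference of drought effects (10 minus 5 dpa, log2) of 1 gene in the lists with 3 or more genes, red where called higher, blue where called lower and grey where not called, with a black bar at the median of the list. NAC factors have the highest median (1.55) and sterol methyltransferases the lowest (-1.85); the dashed line at 1.50 is the shift of the 4 poly-A controls, and red points to its left turned negative with scaling on those controls.

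Probe sets without a gene held the extremes of the whole table. The highest differences were 8.31, from effects of 4.23 at 10 dpa and -4.08 at 5 dpa, and 7.54, from effects of 9.10 and 1.56. The lowest were -5.96, from effects of -6.21 and -0.25, and -5.73, from effects of 1.17 and 6.90. Of the 100 probe sets with the largest absolute difference, 75 were higher and 25 lower, and 10 had a gene.

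The arrays at 20 dpa, which the difference does not use, add a drought effect in older fibre-bearing ovules. At that stage 26% of all probe sets were called higher in drought and 34% lower. Among probe sets with a difference at least 2-fold lower, 175 had a rise called at 5 dpa alone. At 20 dpa 65.1% of them were called higher and 10.3% lower. Of the 300 that were lower in drought at 10 dpa and higher at 5 dpa, 63.7% were called higher and 27.3% lower. For the 210 whose rise was smaller at 10 dpa these shares were 59.0% and 23.3%. Of the 737 whose fall was deeper at 10 dpa, 28.6% were higher and 48.4% lower at 20 dpa, and of the 229 called at 10 dpa alone 37.1% were higher and 41.0% lower. Among probe sets with a difference at least 2-fold higher, 483 had a rise that was larger at 10 dpa. At 20 dpa 29.8% of them were called higher and 48.7% lower. Of the 406 with opposite effects, 29.1% were higher and 53.7% lower. The shares were 37.2% and 41.7% for the 247 called at 10 dpa alone, and 22.7% and 42.7% for the 110 called at 5 dpa alone. For the 55 whose fall was smaller at 10 dpa they were 16.4% and 63.6%. These shares were not tested. ACS3/ACS6 had effects of 1.23, 3.01, 0.61 and 3.79 at 0, 5, 10 and 20 dpa. DBP3b had 1.68, 2.32, 0.47 and 3.65 and MFP 1.41, 1.70, 0.34 and 2.79 at the same stages, so that in each of these 3 genes the effect at 10 dpa was the smallest of the 4. They are examples chosen among genes with a lower difference, which fixed that the effect at 10 dpa lay below that at 5 dpa. The shift of the spike controls is given here for 5 and 10 dpa alone. Comparisons of effects across the 4 stages, also those of the next paragraph, therefore hold for the deposited scaling.

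Some genes with the largest positive differences are given as examples whose highest effect was at 10 dpa instead. An effect above that at 5 dpa was fixed by choosing them for a positive difference. The effects at 0, 5, 10 and 20 dpa were -2.09, 0.77, 5.88 and -1.23 for pod10, -0.13, 4.73, 7.71 and -2.26 for NAC5/NAC8, and -0.42, 1.51, 4.34 and -2.83 for Lox1. All 3 genes were called lower in drought at 20 dpa. NAC4, NAC2 and NAC7 were called higher in drought at 20 dpa, with effects of 1.23, 1.72 and 0.24, and so was ZFP1 at 0.94.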

How the data were processed

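The authors deposited log2 signals for 24132 probe sets on 24 arrays, which came from RMA per the submitters' processing notes. Its version, and which arrays were normalised together, are not stated. Each probe set of these deposited log2 values has a median of 0 in each stage (within 5e-07), a centring that is not stated either. A filter on dim probe sets could therefore not be applied. The number of arrays limits the precision.

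All 24 arrays entered a model of 8 group means in limma 3.58.1 under R 4.3.3 (lmFit and eBayes, 16 residual degrees of freedom). The contrast was drought minus control at 10 dpa minus the same at 5 dpa, two-sided, adjusted by Benjamini-Hochberg over 23973 probe sets and called at an adjusted p under 0.05. The fit was also run on simulated arrays with known differences, independent noise and no shift of whole arrays. That run cannot bear on the shift seen in the spike controls. Same-numbered replicates did not pair: their deviations from group means correlated from -0.05 to 0.11, against -0.12 to 0.09 between different numbers. Summaries used Python 3.11.15 and pandas 2.3.3.

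Genes were named from the platform annotation and the synonyms of the RefSeq table of Gossypium_hirsutum_v2.1, in which all 520 genes were found. Each gene was read by 1 probe set, sense design first, then by suffix, then by ID. The genes named first were the 14 largest positive and 14 largest negative differences among called probe sets with 1 informatively named gene with drought and control arrays apart at 10 or 5 dpa, then the largest member in each direction of each list of 3 or more genes, and the 2 extreme probe sets without a gene each way. Of the 53 genes, 27 were read by probe sets that can bind related transcripts. Other list members were named after their values were seen. The comparison, the members and the lists were chosen with earlier results of these data known, and the name patterns of the lists were completed and corrected from the annotation. Of 39 lists 35 had a gene; those for abscisic acid, heat shock, pollen and xylem had 0.

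Alternatives were scaling on poly-A controls, on hybridisation controls or on array medians, a covariate for the 5′ minus 3′ signal, the 12 arrays alone, replicate numbers as a block, array weights, a robust spread, other sets of probe sets, stricter thresholds, and each array left out. Scaling on 4 poly-A controls, leaving out Trp, which did not move with the others, was chosen after seeing the data.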

Additional observations from a re-analysis of the deposited data

Results flagged for a closer look

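Named genes whose drought effects were called in opposite directions at 10 and 5 dpa came up for a closer look. Higher in drought at 10 dpa and lower at 5 dpa were GHMYB36 (difference 2.61), susC (2.26), CAT2 (1.97), CTL1 (1.38) and FLA6 (0.68). Lower in drought at 10 dpa and higher at 5 dpa were Aux3 (-1.37), FAD78-1A (-1.72), PAP10 (-1.97) and pod5 (-2.70). Among all 243 named genes 13 had such opposite effects, beside 1387 of all 23973 probe sets (5.79%), so the named genes did not stand out in this. With scaling on the 4 poly-A controls the differences of CTL1 and FLA6 turned negative and that of CAT2 was not called. That scaling also lowers every effect at 10 dpa by 1.26 and raises every effect at 5 dpa by 0.24. The effect of GHMYB36 at 10 dpa barely exceeds this shift, and that of susC does not reach it. Higher in drought at 10 dpa therefore holds for the deposited scaling.

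The poly-A spike controls Dap, Lys, Phe and Thr, which are left out of the tests and serve as an alternative scaling, had a difference of 1.50 between the stages in drought minus control signal, with 1.26 at 10 dpa and -0.24 at 5 dpa. The cause was not tested.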

How the results depend on the processing

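The count of 11160 called differences ranged from 10471 to 11465 when 1 array was left out, with 5268 to 5727 higher and 5203 to 5738 lower; the effects called ranged from 13736 to 14387 at 10 dpa and from 13181 to 14295 at 5 dpa. It was 11161 with a replicate block and 10708 with a replicate block within stage, which lost the call of GID1-2 and of no other named gene. It was 11666 with the 5′ minus 3′ covariate, 12396 with array weights and 7860 with scaling on hybridisation controls, where 1430 were higher. With the 5′ minus 3′ covariate the effects called were 13266 at 10 dpa and 13070 at 5 dpa, in place of 14445 and 13963. Scaling on all 5 poly-A controls called 22653 (523 higher, 22130 lower) and on the 4 without Trp 23097 (408 and 22689), with 22440 and 22746 effects called at 10 dpa; their common shift of all probe sets builds this in. These scalings move every difference down, so no lower difference could turn; 3787 and 4337 of the higher ones were called lower. Without probe sets of suffix _s_at, _x_at or _a_at 5471 were called (2885 higher, 2586 lower), with 7098 effects at 10 dpa and 6798 at 5 dpa, fewer probe sets being tested. At least 2-fold were 2952 (1301 higher, 1651 lower), with 4574 effects at 10 dpa and 3048 at 5 dpa.

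Named genes turned direction under the poly-A scalings, with all 5 controls first and without Trp second: RPS16 (-0.38, -0.61), GID1-2 (-0.40, -0.64), MAPKKK (-0.43, -0.67), FLA6 (-0.59, -0.83), NHX1 (-0.68, -0.92), TUA10 (-0.71, -0.95), EXP1 (-0.72, -0.95), HB4 (-0.74, -0.98), KIS13A1 (-0.84, -1.08), Anx1 (-1.0, -1.24), ACT1 (-1.03, -1.27) and, without Trp alone, CTL1 (-0.12). With hybridisation controls Anx1 (-0.082) and ACT1 (-0.11) turned, 9 others of the 28 higher named genes lost their call (RPS16, GID1-2, MAPKKK, FLA6, NHX1, TUA10, EXP1, HB4 and KIS13A1) and 17 kept it, the number of MYB genes called higher was 3 in place of 7, of ribosomal protein genes 0 in place of 3, and of tubulins called lower 1 in place of 3; and as the mean of its probe sets TUA10 did (-1.06).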
